A study of Bos taurus with 8 samples.

Results

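The tiled part of bovine chromosome 19 was described here: all 542 of the array's 10249 non-control probes that the scanner files place on that chromosome (build Btau_3.1). Split at gaps of over 20000 bp between probe starts, they fell into 8 loci, numbered 1 to 8 along the chromosome. Probe length was 45 to 60 bp and the median spacing of probe starts was 387 bp. Grouped further into regions (3 or more probes, each start within 1000 bp of the next), 523 probes formed 55 regions and 19 stayed outside them. The chromosome was chosen by measured values, since earlier results of these data singled out 2 of its loci: locus 4, which has the region with the highest mean enrichment, and locus 7, which has a run of probes higher in high-gain heifers. Those values are therefore described with no test. The scanner files give neither gene names nor probe sequences, so items are named by position, and their place relative to genes, exons and introns was not analysed here.

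In mammals most DNA methylation sits on cytosines of CpG pairs, and methylated CpG-rich DNA near gene starts is commonly found at silent genes. A methyl-CpG binding domain (MBD) protein holds double-stranded DNA that carries methylated CpG, so captured DNA set against total DNA ranks stretches of the genome by captured methylation. The arcuate nucleus is a hypothalamic centre that senses nutritional state and takes part in the control of feeding and of reproductive hormone release.

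Heifers (Bos taurus, breed not given in the labels) entered 1 of 2 feeding schedules at the age of 4.5 months and left it at 8.5 months. Heifers 1 to 4 were to gain 1 kg a day (high-gain) and heifers 5 to 8 only 0.5 kg a day (low-gain). No genotype or other treatment was labelled, and arcuate nucleus tissue was taken at the end. For each heifer 1 array carried 3 µg each of MBD-enriched DNA (Alexa Fluor 647, red) and input DNA (Alexa Fluor 555, green), always in that dye order. Each heifer is thus 1 replicate of whole tissue, in which a change in cell make-up and a change within cells cannot be told apart. The labelled tissue could not be checked against marker genes, since the files hold DNA signals with no gene names. All 8 arrays shared 1 slide, with heifers 1, 2, 5 and 6 in row 1 and heifers 3, 4, 7 and 8 in row 2. One array stood apart from its group: across the chromosome's probes heifers 6, 7 and 8 correlated with each other at Pearson r = 0.606 to 0.644, and heifer 5 with that trio at 0.0447 to 0.0948. For the loci and the top-ranked regions, results that leaving out heifer 5 moved past the threshold are given without it too. The array of heifer 5 was singled out over these same probes, so such passes are no independent support.

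The value throughout is log2(enriched/input) minus the median of that array over its non-control probes. A value of 0 is therefore the array's median probe and not an absence of methylation. Positive values mark more captured DNA per input than that probe, and differences are high-gain minus low-gain. An enrichment profile is the mean of both group means. Across whole arrays the chromosome lay close to the median probe: its mean was -0.08 ± 0.07 for high-gain and -0.02 ± 0.12 for low-gain heifers (SD, n = 4 each). The groups overlapped, and the difference did not pass (exact permutation p = 0.400, two-sided), being 0.03 within slide row 1 and -0.15 within row 2.

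The 8 loci differed little in mean enrichment. Locus 1 (chr19:8684807-8707897, 36 probes) averaged -0.19 (SE 0.07) and locus 7 (chr19:43746570-43829542, 101 probes) -0.21 (SE 0.07), each below 0 on 7 of 8 arrays. They were the 2 of 7 loci tested that passed (limma, Benjamini-Hochberg adjusted p = 0.0376 and 0.0278 over 97 loci), both below the median, where 34% of all loci of the array passed below it and 7.22% above. In locus 1 the median probe profile was -0.01. With the median over probes on each array in place of the mean neither locus passed (-0.05 and -0.18, with limma adjusted p of 0.579 and 0.132). Locus 1 also lost its call with loess (-0.08; limma, adjusted p = 0.302) and over probes well above background in both channels (-0.17; limma, adjusted p = 0.0725). Within either slide row neither locus passed. Both calls were also lost without heifer 1, 3, 4, 6 or 8, with adjusted p (limma) of 0.0613, 0.0954, 0.0628, 0.133 and 0.0861 for locus 1 and 0.0613, 0.0667, 0.0544, 0.110 and 0.0627 for locus 7. Locus 4 (chr19:38704348-38754256, 111 probes) averaged -0.13 (SE 0.07, no test).

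The remaining loci did not pass. Locus 8 (chr19:55412823-55422377, 17 probes) averaged 0.17 (SE 0.09; limma, adjusted p = 0.173), with 6 of 8 arrays above 0. It passed without heifer 8 (0.26; limma, adjusted p = 0.0437) and with loess (0.23; limma, adjusted p = 0.0249), and was -0.03 with normexp background correction. Locus 5 (chr19:41957447-41985433, 58 probes) averaged 0.13 (SE 0.07; limma, adjusted p = 0.173), and 0.20 without heifer 5, which passed (limma, adjusted p = 0.0168). Locus 2 (chr19:26912985-26934895, 38 probes), locus 3 (chr19:35986834-36061883, 146 probes) and locus 6 (chr19:43485564-43500887, 35 probes) averaged 0.07, 0.03 and -0.06. Spread among probes within a locus was far wider than the spread among loci. Probe profiles ran from -4.48 to 1.40 in locus 3, the widest range, and from -1.07 to 0.88 in locus 8, the narrowest.

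The brightness of each colour alone, centred on the array median of that channel, depends on the probes as well as on the DNA and ranks no locus by methylation. It shows where the ratios rest on weak light. Locus 6 was dim in both channels, at -0.65 in the enriched and -0.88 in the input channel, while locus 7 was bright in both, at 0.67 and 0.59.

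**Figure D1:**
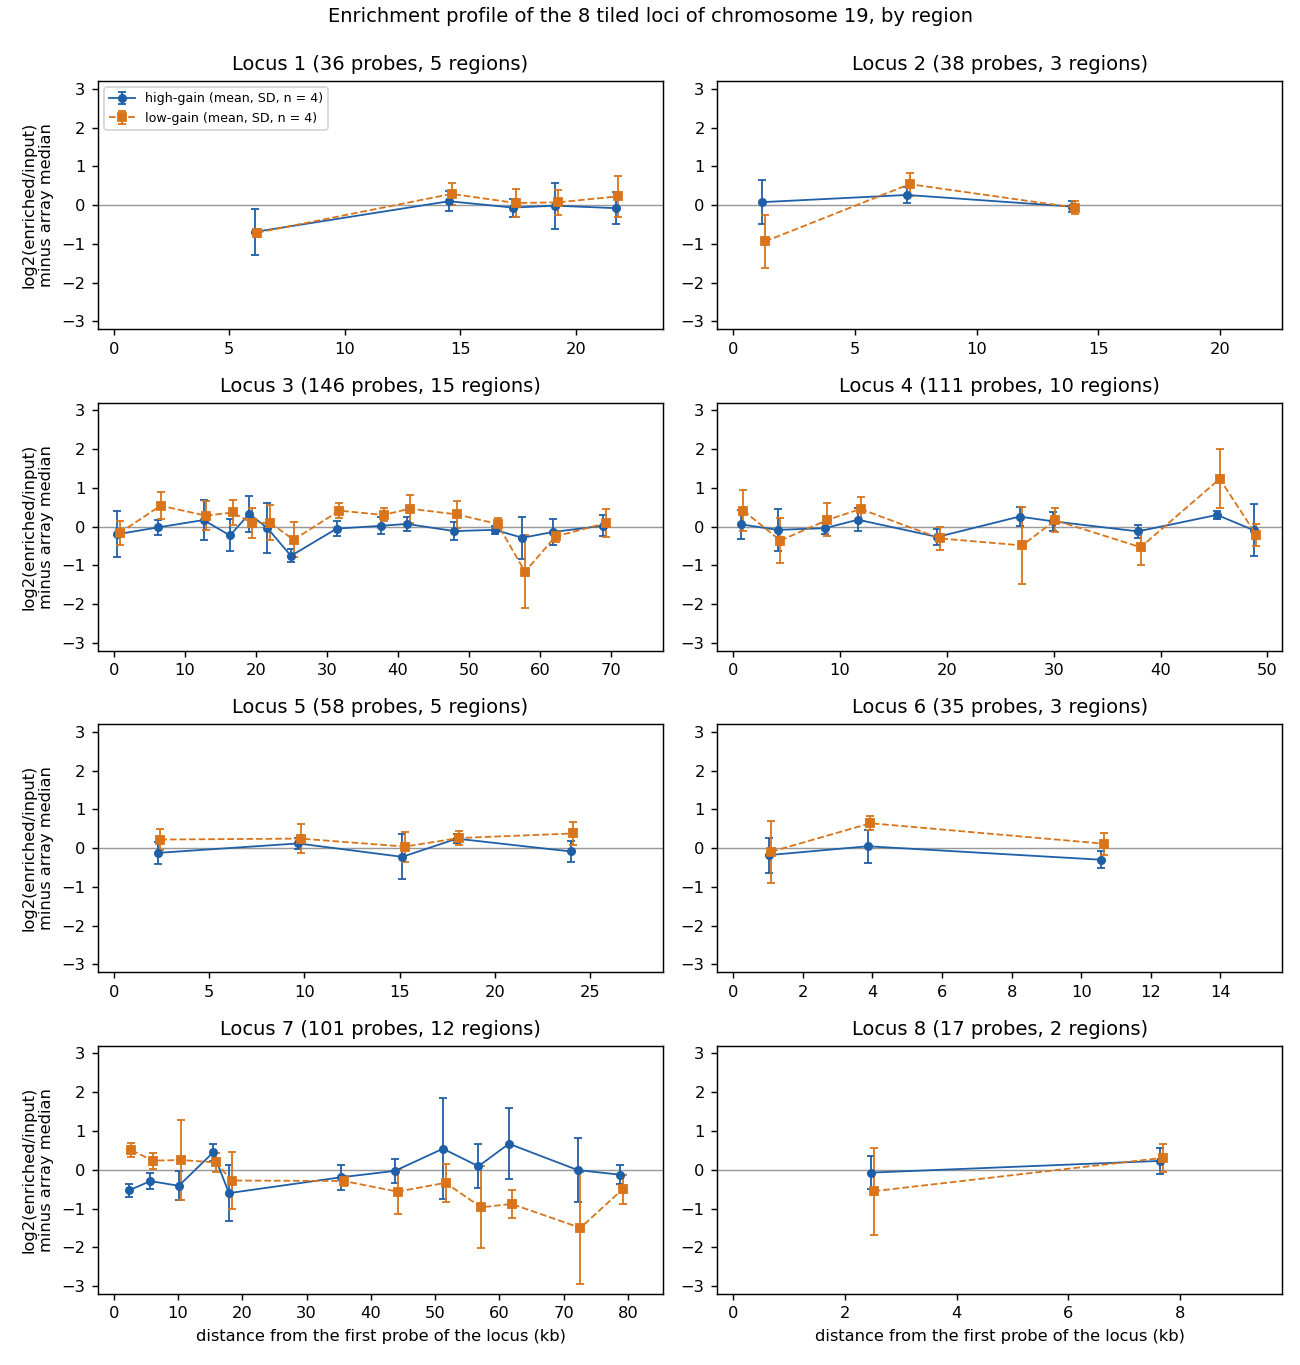
Mean log2(enriched/input) of each region, minus the array median, against the distance in kb of the region's centre from the first probe of its locus, for the 8 loci. Circles are the means of 4 high-gain and squares of 4 low-gain heifers, with bars of 1 SD. The largest gaps between the groups lie in locus 7, where the low-gain line starts above the high-gain line and ends below it.

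Between feeding groups no locus separated. The mean of locus 6, the one with the largest difference, was -0.26, -0.29, -0.0047 and -0.47 in heifers 1 to 4 and -0.26, -0.00011, 0.41 and 0.40 in heifers 5 to 8. Heifers 7 and 8 lay above all others, while heifer 5 lay among the high-gain heifers. The difference was -0.39 (SE 0.16, n = 4 each), which did not pass (limma, adjusted p = 0.258, unadjusted p = 0.0329), with -0.14 within slide row 1 and -0.64 within row 2. Locus 5 followed, at -0.01 ± 0.11 in high-gain and 0.27 ± 0.29 (SD, n = 4 each) in low-gain heifers, and locus 3 at -0.08 ± 0.15 and 0.15 ± 0.11. Neither difference, -0.28 (SE 0.15) or -0.23 (SE 0.12), passed (limma, adjusted p = 0.421 each). With array weights loci 3, 5 and 6 passed, at -0.28, -0.33 and -0.42 (limma, adjusted p = 0.0263, 0.0325 and 0.0260). With normexp the differences of loci 3 and 5 turned, to 0.014 and 0.026. Without heifer 5 the differences of loci 5 and 6 were -0.42 and -0.52 and passed (limma, adjusted p = 0.0466 each). Neither passed with any other heifer left out. Heifer 5 was singled out by its unlikeness to its group over these same probes, so passes without it are no independent support for a difference.

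Loci 1, 2 and 8 differed by -0.10, 0.16 and -0.03 (SE 0.13, 0.15 and 0.18; limma, adjusted p = 0.651, 0.5998 and 0.932). The direction in locus 1 turned within slide row 1 (0.11) and the direction in locus 8 within row 2 (0.33). Over the 6 loci tested none passed the adjusted threshold (limma) and 1 reached an unadjusted p under 0.05, lower in high-gain. Of all 97 loci of the array 0% passed in either direction, while 4.12% were higher and 10.3% lower at an unadjusted p under 0.05. Whatever the size, 3 of the 8 loci lay higher in high-gain heifers and 5 lay lower, against 46.4% and 53.6% of the 97. In none of the 8 did the groups stand apart, against 2.06% of the 97 loci in each direction. Neither channel alone gave a locus on the chromosome that passed (limma, smallest adjusted p = 0.364 in enriched and 0.482 in input, both locus 8, where the unadjusted p were 0.0300 and 0.0162).

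**Figure D2:**
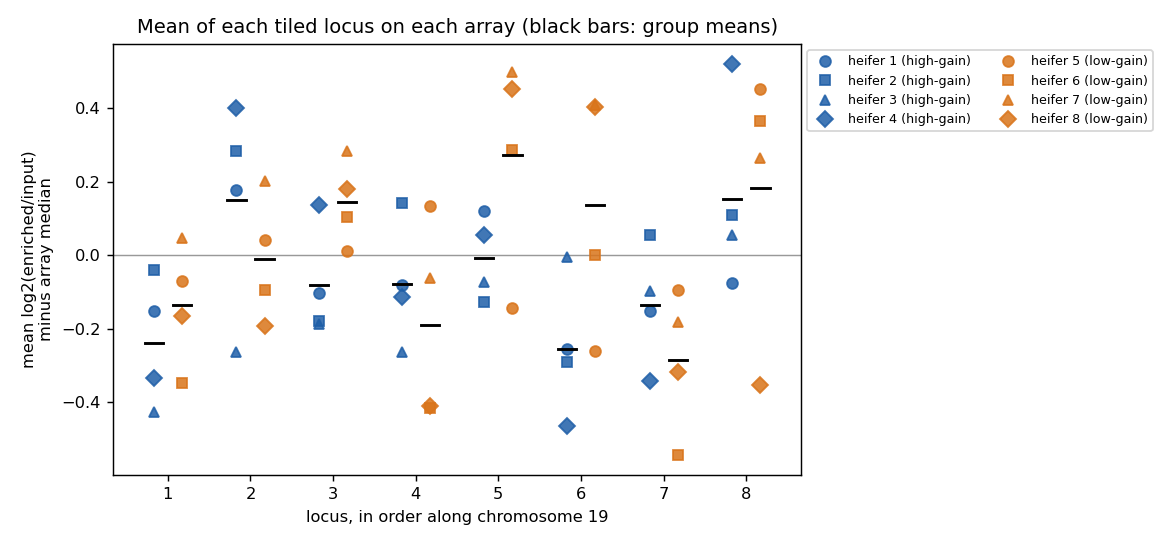
Mean log2(enriched/input) minus the array median over the probes of each locus, for each heifer, with the loci in order along the chromosome. Blue points are high-gain and orange points low-gain heifers, and black bars are group means. The groups overlap in all 8 loci.

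Locus 4 holds the highest region of the whole array in mean enrichment, chr19:38749277-38750244, with 4 probes. In heifers 1 to 4 it lay at 0.16, 0.41, 0.32 and 0.32, and in heifers 5 to 8 at 0.16, 1.22, 1.69 and 1.85. Every array was above its median, and 3 low-gain arrays stood well above the rest. Heifer 5 lay just above the lowest high-gain heifer, by less than the rounding, so the groups overlapped. The mean of both groups was 0.77 (SE 0.17) and the difference -0.93 (SE 0.33), or -1.29 without heifer 5, with -0.41 within slide row 1 and -1.45 within row 2. With normexp the mean of both groups was 0.27. These values chose the locus and are given with no test.

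The 4 probes of that region did not carry the enrichment equally. The probe at 38749621 had the highest profile, 1.47, with 0.18, 0.83, 0.22 and 1.20 in heifers 1 to 4 and 0.15, 1.87, 3.84 and 3.48 in heifers 5 to 8. Its neighbours at 38749277, 38749454 and 38750195 lay at 0.48, 0.29 and 0.82. In all 4 probes heifers 6, 7 and 8 lay above heifer 5. At the first 3 probes both channels were well above background on all 8 arrays. The difference between the groups lay in the enriched channel, -0.86 (SE 0.35), with 0.08 (SE 0.15) in the input channel. The rest of locus 4 ran from -0.33 to 0.32 in region profiles, so the high region stood alone in it. The second highest there, chr19:38715288-38716988, averaged 0.32 and was above 0 on 6 of 8 arrays (limma, adjusted p = 0.0917). It passed with loess (0.45; limma, adjusted p = 0.0490) and with array weights (0.34; limma, adjusted p = 0.0270), and was -0.05 with normexp.

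Elsewhere on the chromosome 4 of the 54 regions tested differed from the array median at adjusted p under 0.05 (limma), 1 above and 3 below, against 3.33% above and 9.58% below among all 960 regions. The one above was chr19:26917263-26923084 in locus 2 (15 probes), at 0.40 (SE 0.12, adjusted p = 0.0452, limma) and above 0 on 8 of 8 arrays, from 0.03 in heifer 3 to 0.88 in heifer 7. Of its probes, 3 had no enriched signal well above background on any array. The call was lost without any 1 of heifers 1, 2, 3, 4, 6, 7 and 8 (0.34 to 0.44; limma, adjusted p = 0.0579 to 0.118). It was also lost with normexp (0.08; limma, adjusted p = 0.303), with the authors' deposited values centred (0.24; limma, adjusted p = 0.148) and over probes well above background in both channels (0.26; limma, adjusted p = 0.234). Among the 5 highest, chr19:43489040-43489895 in locus 6 and chr19:43761553-43762910 in locus 7 averaged 0.35 and 0.32 (SE 0.13 and 0.11). Neither passed (limma, adjusted p = 0.0818 and 0.0747), but both did with array weights (limma, adjusted p = 0.0249 and 0.0319). The former also passed with loess and without heifer 2 (limma, adjusted p = 0.0180 and 0.0399).

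Of the 3 regions below, chr19:8688733-8693181 in locus 1 (13 probes) averaged -0.70 (SE 0.15; limma, adjusted p = 0.0121). It was under 0 on 8 of 8 arrays, from -1.52 in heifer 4 to -0.07 in heifer 2, and its call held without any 1 heifer (limma, adjusted p = 0.00822 to 0.0424). A single probe weighed on that mean. The 45 bp probe at 8691333 lay at -4.35, between -4.98 and -3.79 on the 7 arrays with a value, its spot on the array of heifer 2 having been left out for an outlier flag. Its enriched channel exceeded background clearly on 2 high-gain arrays and on no low-gain array (not well above background there), so its low ratio is only a bound. Over probes well above background in both channels the region was at -0.43 (limma, adjusted p = 0.05999), and with the median over probes in place of the mean it was at -0.31 and did not pass (limma, adjusted p = 0.142).

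The region chr19:36010557-36013331 in locus 3 (7 probes) averaged -0.55 (SE 0.13; limma, adjusted p = 0.0199), and was again set by 1 probe. The 45 bp probe at 36010973 lay at -4.11, -4.30, -3.59 and -4.84 in heifers 1 to 4 and at -5.64, -4.17, -4.10 and -5.06 in heifers 5 to 8. That was the lowest profile on the chromosome, -4.48 (SE 0.25; limma, adjusted p = 1.3e-05 over 10249 probes), with both channels well above background on all arrays. The other 6 probes ran from -0.62 to 0.57, and the region's median probe profile was -0.08. With the median over probes on each array in place of the mean it was at 0.06 and did not pass (limma, adjusted p = 0.778). The regional call was lost without heifer 3, 6 or 8 (limma, adjusted p = 0.0606, 0.0507 and 0.0540). Over single probes 6 passed above and 24 below the median, 1.11% and 4.43% of the 542, against 1.31% and 4.23% of all probes.

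The last of these regions, chr19:36044292-36044734 in locus 3 (3 probes), averaged -0.73 (SE 0.21; limma, adjusted p = 0.0452), at 0.21, -0.11, -1.05 and -0.21 in heifers 1 to 4 and 0.11, -1.35, -1.24 and -2.17 in heifers 5 to 8. Heifers 3, 6, 7 and 8 held the low values. Both channels were bright there, 1.64 in the enriched and 2.08 in the input channel, so a ratio under the median went with an enriched signal above it. Its difference of 0.87 (SE 0.42) lay in the input channel, -0.78 (SE 0.30), rather than in the enriched channel, 0.09 (SE 0.32). The profile call was lost without any 1 of heifers 1, 3, 4, 6, 7 and 8 (limma, adjusted p = 0.0511 to 0.119), and within slide rows 1 and 2 the profile was -0.28 and -1.17. The region with the lowest mean of all 55, chr19:43818637-43819302 in locus 7, did not pass (-0.75; limma, adjusted p = 0.101) but did without heifer 5 (-1.11; limma, adjusted p = 0.00503), and is described with that locus. Also among the 5 lowest was chr19:43763925-43765447 in locus 7 (6 probes), at -0.44 (SE 0.20; limma, adjusted p = 0.141).

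Outside loci 4 and 7, whose values put the chromosome forward, none of 33 regions passed between the groups (limma, smallest adjusted p = 0.258), and at an unadjusted p under 0.05, 1 was higher in high-gain heifers and 3 were lower. Over all 55 regions, as a description, 4 were higher in high-gain heifers and 6 were lower, at that unadjusted p, 7.27% and 10.9%, against 6.25% and 8.23% of all 960 regions, of which 0.104% and 0% passed the adjusted threshold. With loess 1 was higher and 5 lower, and with normexp background correction 11 were higher and 1 lower, so the balance of directions is not settled. The groups did not overlap in 1 region higher and 3 lower, against 2.6% and 3.65% of all regions. The median difference over the 55 regions was -0.11 and over all regions -0.03. Single probes were alike: 34 were higher (6.27%) and 27 lower (4.98%) at an unadjusted p under 0.05, against 7.21% and 5.23% of all probes, and 0 passed (limma), as for 0% of all probes in either direction. Of the 330 probes outside loci 4 and 7, 13 were higher and 15 lower at an unadjusted p under 0.05 (limma, smallest adjusted p = 0.249).

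Locus 7, with 12 of the 55 regions, held 5 of these 10, 2 lower and 3 higher in high-gain heifers. Earlier results put it forward for probes past the same unadjusted threshold, so that count is a description and no support. The directions went with position. Its widest probe gap, 11105 bp before the probe at 43776497, divides it into a left stretch of 36 probes (43746570 to 43765447) and a right stretch of 65 probes (43776497 to 43829542). On the left, 4 of 5 regions were lower in high-gain heifers and 1 was higher. On the right all 7 regions were higher. Over the whole array 47.9% of regions were higher and 52.1% lower. The left stretch averaged -0.16, -0.13, -0.41 and -0.60 in heifers 1 to 4 and -0.12, -0.15, 0.17 and 0.79 in heifers 5 to 8, a difference of -0.50. There heifers 7 and 8 lay above all others, heifer 6 lay among the high-gain heifers, and heifer 5 lay just above the highest of them. The right stretch averaged -0.15, 0.16, 0.08 and -0.20 in heifers 1 to 4 and -0.08, -0.76, -0.38 and -0.94 in heifers 5 to 8, a difference of 0.51. There heifers 6, 7 and 8 lay below all others and heifer 5 lay among the high-gain heifers. Over the whole locus the difference was 0.15 (SE 0.13), at -0.13 ± 0.16 in high-gain and -0.28 ± 0.20 (SD, n = 4 each) in low-gain heifers, with 0.27 within slide row 1 and 0.03 within row 2. That difference ran from 0.02 with loess to 0.40 over probes well above background in both channels, and was 0.37 over probes with input well above background, 0.32 with normexp and 0.06 without heifer 6. The division was made after the values were seen, and earlier results had put the locus forward, so no group difference within the locus is given a test of its own.

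**Figure D3:**
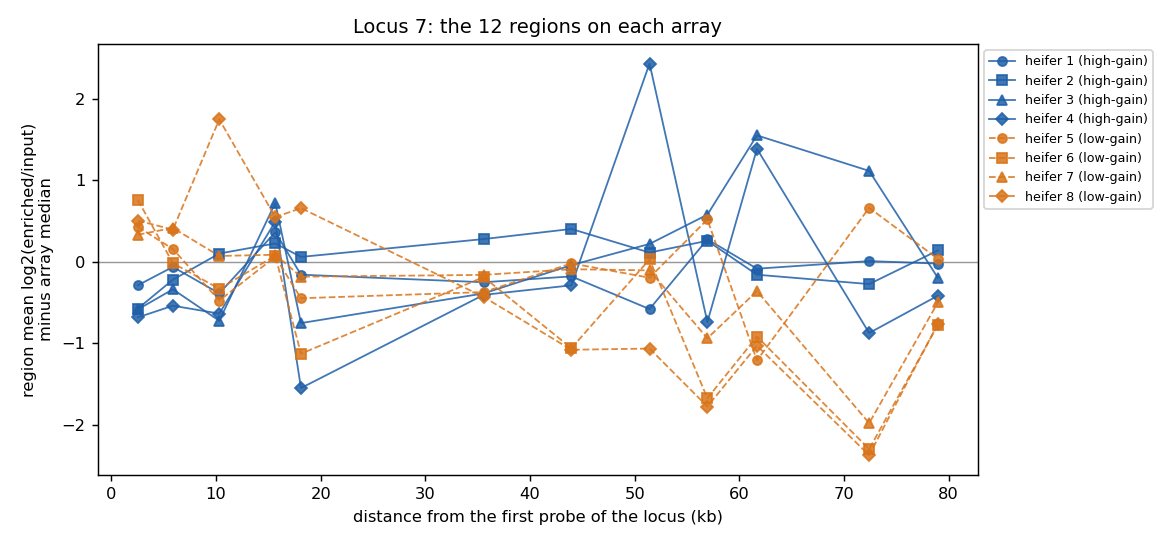
Mean log2(enriched/input) minus the array median of the 12 regions of locus 7 on each array, against distance in kb from the first probe of the locus. Solid blue lines are high-gain and dashed orange lines low-gain heifers. The low-gain lines lie above the high-gain lines in the first region, and heifers 6, 7 and 8 lie lowest in the region at about 72 kb while heifer 5 lies among the high-gain heifers.

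The leftmost region, chr19:43748144-43750062 (6 probes), lay at -0.29, -0.58, -0.59 and -0.68 in heifers 1 to 4 and at 0.43, 0.76, 0.33 and 0.50 in heifers 5 to 8. All high-gain arrays were below 0 and all low-gain arrays above it, heifer 5 included. The difference was -1.04 (SE 0.22), -1.02 within slide row 1 and -1.05 within row 2, and it ranked second of 960 regions by absolute moderated t. It was -1.06 without heifer 5 and lay between -1.12 and -0.95 without any other heifer. The region is dim, at -1.52 in the enriched and -1.79 in the input channel, and 2 of its 6 probes were without a clear enriched signal (not well above background) on all 8 arrays. With normexp the difference was -0.27, over probes with input well above background -0.54, and both channels moved, by -0.65 (SE 0.25) in enriched and 0.39 (SE 0.18) in input. The next region, chr19:43751427-43753471 (8 probes), differed by -0.53 (SE 0.22), again with no overlap, from -0.54 to -0.07 in high-gain and -0.02 to 0.41 in low-gain heifers.

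In the right stretch the earlier results had found 1 run of 3 neighbouring probes higher in high-gain heifers, 1 of 13 such runs on the array (at least 3 probes, each at an unadjusted p under 0.05 with the same sign). Its probe at 43790345 lay at -0.05, 0.73, -2.27 and 0.58 in heifers 1 to 4 and 0.12, -4.02, -2.66 and -3.66 in heifers 5 to 8. The next, at 43790596, lay at -0.79, 0.48, -0.33 and 2.14 in heifers 1 to 4 and -0.01, -1.56, -1.33 and -2.14 in heifers 5 to 8. In both, heifer 5 fell inside the high-gain range. At the third, at 43790997, the groups did not overlap: 0.48, 0.50, 1.19 and -0.40 in heifers 1 to 4 and -0.51, -1.18, -0.63 and -1.001 in heifers 5 to 8. Differences of the 3 probes were 2.30, 1.63 and 1.27, and the run as a whole differed by 1.42 within slide row 1 and 2.05 within row 2. Their input signals differed by -0.34, -0.41 and -0.02 and their enriched signals by 1.96, 1.21 and 1.24. The region around the run, chr19:43787376-43793665, holds 14 probes and differed by 0.54 (SE 0.30).

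Further right, chr19:43807859-43808643 (3 probes) lay at -0.09, -0.16, 1.55 and 1.38 in heifers 1 to 4 and -1.21, -0.92, -0.36 and -1.03 in heifers 5 to 8. No high-gain array fell below any low-gain array. The difference was 1.55 (SE 0.40), 0.94 within slide row 1 and 2.16 within row 2, and it ranked ninth of all regions by absolute moderated t. With normexp it was 1.17. The enriched channel differed by 1.76 (SE 0.44) and the input channel by 0.22 (SE 0.22). Its probes disagreed, with differences of 1.40 at 43807859, -0.31 at 43808158 and 3.57 at 43808583.

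That last probe, 60 bp long, had the largest absolute moderated t of all 10249 probes and is singled out after its values were seen. It lay at 0.05, 0.22, 0.80 and 0.39 in heifers 1 to 4 and at -3.39, -3.16, -2.46 and -3.80 in heifers 5 to 8. The groups were far apart, and heifer 5 sat with the other low-gain heifers. The difference was 3.57 (SE 0.43), 3.41 within slide row 1 and 3.73 within row 2. It came from the enriched channel, which lay at 2.95, 3.57, 4.86 and 4.54 in heifers 1 to 4 and 0.47, 0.61, 2.01 and -0.34 in heifers 5 to 8, while the input channel differed by -0.27 (SE 0.36). Input was well above background on all 8 arrays, and the enriched channel on all but 1 low-gain array. The difference was 3.66 with the authors' deposited values centred, 2.94 with normexp, 3.30 with array weights and 3.51 without heifer 5. Without any other 1 heifer it lay between 3.37 and 3.82.

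At chr19:43818637-43819302 (3 probes), the region lowest in mean enrichment, heifers 1 to 4 lay at 0.01, -0.28, 1.11 and -0.88 and heifers 5 to 8 at 0.66, -2.30, -1.98 and -2.37. Heifers 6, 7 and 8 stood below all others, and heifer 5 lay above 3 of 4 high-gain heifers. The difference was 1.49 (SE 0.61), 0.69 within slide row 1 and 2.30 within row 2, and without heifer 5 it was 2.21. Both channels were bright, at 2.34 in enriched and 2.81 in input, and all 3 probes were well above background in both on every array. To the left of both lies chr19:43801747-43805278 (6 probes), which differed by 1.06 (SE 0.46) and without heifer 5 by 1.56.

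Outside locus 7 the largest difference lay at the left end of locus 2. The region chr19:26912985-26915484 (8 probes) lay at 0.21, 0.36, -0.76 and 0.49 in heifers 1 to 4 and -0.18, -0.63, -1.17 and -1.77 in heifers 5 to 8. Heifer 3 fell among the low-gain heifers, so the groups overlapped. The difference was 1.01 (SE 0.37; limma, adjusted p = 0.258), 0.69 within slide row 1 and 1.33 within row 2, with 0.93 in the enriched and -0.08 in the input channel. At adjacent 60 bp probes, 26913743 and 26913988, the groups did not overlap. There the enriched channel was well above background on all 4 high-gain arrays but on only 1 and 2 low-gain arrays, so their fitted differences of 3.61 and 3.50 rest partly on low-gain signals near background. With the median over probes the difference of the region was 1.07, and with array weights it was 1.23 and passed (limma, adjusted p = 0.0181).

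Among the regions of loci 3 and 6 with the largest moderated t, 2 were lower in high-gain heifers and 1, chr19:36044292-36044734 described above, was higher. In locus 6, chr19:43489040-43489895 (3 probes) lay at 0.10, -0.51, 0.06 and 0.54 in heifers 1 to 4 and 0.40, 0.69, 0.64 and 0.85 in heifers 5 to 8. Heifer 4 fell inside the low-gain range. The difference was -0.59 (SE 0.26; limma, adjusted p = 0.299). In locus 3, chr19:35989374-35997079 (18 probes) averaged -0.02 ± 0.19 in high-gain and 0.54 ± 0.35 (SD, n = 4 each) in low-gain heifers, a difference of -0.56 (SE 0.24; limma, adjusted p = 0.299). One more region of that locus, chr19:36014693-36022117 (22 probes), was named after its values were seen because its groups did not overlap, at -0.32 to 0.15 in high-gain and 0.18 to 0.61 in low-gain heifers. In locus 3, 107 of 146 probes were lower in high-gain heifers whatever the size, against 55.3% of all probes of the array. Loci 5 and 6 were alike, with 42 of 58 and 27 of 35 lower. In loci 1, 2 and 8 the counts were 21 of 36, 20 of 38 and 11 of 17, and in loci 4 and 7 they were 53 of 111 and 44 of 101. Neighbouring probes share arrays and are not independent, and with normexp the mean difference of locus 3 was 0.014.

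Of single probes, the groups did not overlap at 12 that were higher and 21 that were lower in high-gain heifers, of 541 with a value on every array, against 2.67% and 4.2% of all probes. Of the 12 higher ones 8 were 60 bp long, against 21.6% of the chromosome's probes, and differences ran from 0.50 to 3.61. Of the 21 lower ones 13 were 45 bp long, against 45.6% of the chromosome's probes, and differences ran from -2.21 to -0.60. The enriched signal was well above background on all 8 arrays at 5 of the 12 and 9 of the 21. It was so on no array at 0 of the 12 and 8 of the 21, and the differences of those 8 rest on dim spots.

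Ratios differed by probe length on most arrays. The 247 probes of 45 bp averaged -0.04 ± 0.19 in high-gain and 0.23 ± 0.20 (SD, n = 4 each) in low-gain heifers. The 117 probes of 60 bp averaged -0.25 ± 0.34 in high-gain and -0.61 ± 0.42 (SD, n = 4 each) in low-gain heifers, below 0 on 7 of 8 arrays with heifer 2 as the exception. The 178 probes of 46 to 59 bp averaged -0.03 ± 0.10 and 0.03 ± 0.13 (SD, n = 4 each). Heifer 2 ran the other way, from -0.18 at 45 bp to 0.19 at 60 bp, and heifer 5 stayed near 0 at both lengths (-0.03 and -0.02). No test was run on length. On other chromosomes the pattern was alike at the shortest and longest lengths, -0.01 and 0.27 at 45 bp and -0.22 and -0.47 at 60 bp. It differed at 46 to 59 bp, where high-gain heifers averaged -0.06 and low-gain heifers -0.20, below 0 on 7 of 8 arrays. In locus 7, 48.5% of probes were 60 bp long, 12 of 36 on the left and 37 of 65 on the right, and in loci 1, 3, 5 and 6 the share was 5.56% to 8.62%. The part of length in the group differences of these loci was not tested.

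The share of probes with a clear enriched signal was lower on every low-gain array. Enriched signal stood well above background at 74.2%, 76.9%, 72.5% and 77.1% of the chromosome's probes in heifers 1 to 4 and at 69.9%, 69.0%, 70.5% and 53.1% in heifers 5 to 8. The groups did not overlap, and heifer 8 was far below the others. The means were 75.2% ± 2.24 and 65.6% ± 8.36 (SD, n = 4 each; exact permutation p = 0.0286, two-sided, the smallest that 4 against 4 allows, or 0.114 when adjusted for the 4 measures). Within slide row 1 the gap was 6.09 percentage points, and within row 2 it was 13.0. The gap was not particular to the chromosome, since over all other chromosomes the shares were 73.7% ± 2.27 and 62.1% ± 8.60 (SD, n = 4 each). The input channel lay at 86.2% ± 5.59 and 85.6% ± 2.53 (SD, n = 4 each; exact permutation p = 0.83, two-sided). In all, 106 probes had no enriched signal well above background on any low-gain array, 70 on any high-gain array and 63 on any array, while 255 had it on all 8. No spot was saturated. The part of this signal gap in the group differences was not tested.

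The spread of values over the chromosome also differed among arrays. The interquartile range was 0.64, 0.91, 1.20 and 1.79 in heifers 1 to 4 and 0.98, 1.90, 1.81 and 2.20 in heifers 5 to 8. Heifers 4, 6, 7 and 8 were wide, and heifers 1, 2 and 5 narrow. The group means were 1.13 ± 0.49 and 1.72 ± 0.52 (SD, n = 4 each). Their difference of -0.59 did not pass (exact permutation p = 0.143, two-sided, or 0.286 when adjusted for the 4 measures). On all 8 arrays the range was narrower on chromosome 19 than over the other chromosomes.

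**Figure D4:**
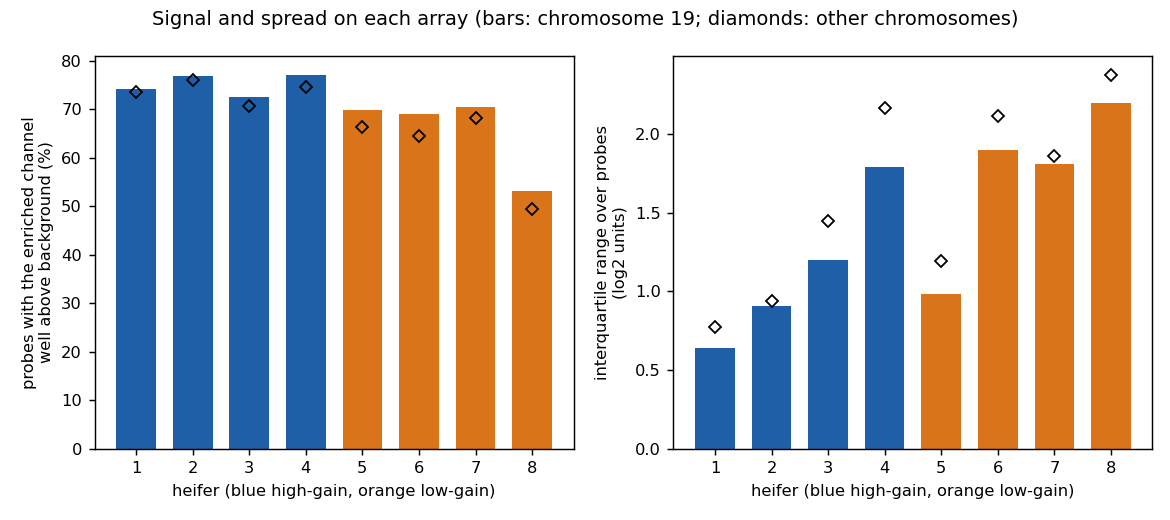
Left, percent of probes with the enriched channel well above background, and right, interquartile range of log2(enriched/input) over probes in log2 units, for each heifer. Bars are chromosome 19 and open diamonds all other chromosomes. On the left heifer 8 has the lowest bar, at 53.1%, and on the right heifer 1 has the lowest, at 0.64.

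Arrays of 1 group did not share a profile to the same degree. Across the 542 probes, which share arrays and neighbours and are not independent, heifer 5 correlated more closely with high-gain arrays, at Pearson r = 0.135 to 0.256, than with heifers 6, 7 and 8, as given at the outset. High-gain heifers correlated among themselves at 0.0979 to 0.273. Over probes with both channels well above background on at least 4 arrays r was 0.643 to 0.695 among heifers 6, 7 and 8 and 0.0252 to 0.0488 between heifer 5 and that trio. There it was 0.195 to 0.350 between heifer 5 and high-gain heifers and 0.141 to 0.337 among high-gain heifers. Over all 542 probes high-gain heifers correlated with heifers 6, 7 and 8 at 0.0718 to 0.394. The highest of these coefficients were those of heifer 3, at 0.324 to 0.394, above any between 2 high-gain arrays. Over the brighter probes this did not hold throughout, with 0.337 between heifers 3 and 4 and 0.321 between heifers 3 and 8. Likeness thus did not follow the feeding groups throughout, though the highest coefficients of all lay within low-gain, among heifers 6, 7 and 8.

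**Figure D5:**
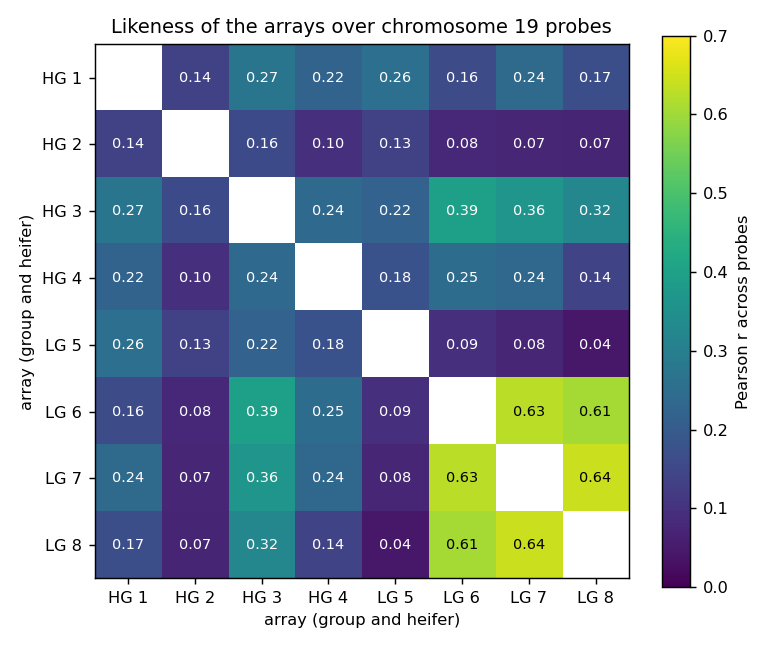
Pearson r across the chromosome's 542 probes between each pair of arrays, high-gain (HG) heifers 1 to 4 and low-gain (LG) heifers 5 to 8, with the value in each cell and yellow for the highest. Heifers 6, 7 and 8 form a bright block of r above 0.6, and heifer 5 lies outside it.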

How the data were processed

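MBD-enriched and input DNA of 8 heifers were hybridised on 2-colour arrays, 1 per heifer. Per the file headers, Agilent Feature Extraction 10.7.1.1 quantified the spots, probes are placed on Btau_3.1 (positions printed as the files give them, whether counted from 0 or 1 not stated), and the processed signals taken from the deposited files are intensity values after that software's background subtraction and dye normalisation. The authors' deposited table holds a log2 ratio per probe, not centred, which matched median signals less background within 1e-04 at 80944 spots. It served as an alternative.

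From the intensities log2(enriched/input) was computed, leaving out 28 spots with an outlier flag (1 on chromosome 19). The median over 10249 non-control probes was then subtracted per array, with no loess. Probe, region and locus means were fitted over the whole array with limma 3.58.1 in R 4.3.3 (two-sided, Benjamini-Hochberg, threshold 0.05). Single values per array were compared by exact permutation. Capture and labelling batches are not given in the labels, so only slide row was examined as a batch. Steps were tested on simulated data.

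Regions named were the 5 largest by moderated t in each direction and the 5 highest and 5 lowest in profile. Members, lists and alternatives (background correction, normalisation, dim probes, weights, slide row, each heifer left out, summaries and gaps) were chosen with earlier results of these data known.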

Additional observations from a re-analysis of the deposited data

Results flagged for a closer look

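In 3 of 60 groups of 4 arrays examined, 1 array stood apart from the other 3 of its group by more than the critical value of Dixon's test. Chance gives about 1 in 20 such groups, which is the share found. In region chr19:43818637-43819302 heifer 5 lay at 0.659, while the other low-gain heifers lay between -2.37 and -1.98. In region chr19:43761553-43762910 heifer 8 lay at 0.545, while heifers 5 to 7 lay between 0.0592 and 0.0841. The share of chromosome 19 probes with the enriched channel well above background was 53.1% in heifer 8 and 69.0% to 70.5% in heifers 5 to 7.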

How the results depend on the processing

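Each result was recomputed under up to 22 alternatives. No paired analysis was possible because the groups are different heifers and the labels pair none of them. Calls between the groups, 0 at each level (limma), stayed at 0 except as follows. Array weights gave 3 loci, 11 regions and 12 probes, normexp 1 region and 1 probe, and the authors' values centred 1 probe. Leaving out 1 heifer gave 0 to 2 loci, 0 to 5 regions and 0 to 13 probes, the highest each time without heifer 5 and 0 without any other. These counts take in the loci whose values put the chromosome forward, so they are no test of those loci. The region called with normexp and the probe called with normexp and with the authors' values lie in the loci put forward. So do regions called with array weights or without heifer 5. Values of those loci chose them, and heifer 5 was singled out over these same probes. Such calls are therefore no support. At an unadjusted p under 0.05 the main 34 higher and 27 lower probes became 17 and 29 with loess, 49 and 23 with normexp, and 61 and 78 without heifer 5.

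The number of loci that passed in profile, 2 in the main setting, became 1 over probes well above background in both channels (bright) and 0 within slide row 1 or 2 and with medians over probes, and 0 to 3 with 1 heifer left out (0 without heifer 1, 3, 4 or 6, and 1 without heifer 8, which was locus 8, above the median). With loess it stayed at 2, with locus 8 in place of locus 1. It rose to 3 with normexp, where locus 3 passed below the median, and to 3 with array weights, where locus 5 passed above. The 4 regions became 11 with loess, 12 with normexp, 15 with array weights, 7 with a gap of 500 bp, 2 with scaling, over probes bright in both channels or within slide row 2, and 0 with the robust trended fit, within slide row 1 or with medians. Without 1 heifer they numbered 1 to 13 (1 without heifer 3, 6 or 8, 2 without heifer 1, 4 or 7, 13 without heifer 5). The share well above background in the enriched channel, 9.55 percentage points higher in high-gain, was 6.09 and 13.0 within slide rows 1 and 2 (exact permutation p = 0.333, the smallest possible there) and 5.38 to 11.2 without 1 heifer (exact permutation p = 0.0571, likewise the smallest). In input the 0.5996 points became -4.43 within slide row 1, -1.85 without heifer 4 and -0.507 without heifer 8, the range without 1 heifer being -1.85 to 2.52. The chromosome mean difference of -0.06 turned to 0.15 with normexp, 0.11 over probes bright in input, 0.12 over probes bright in both channels, and 0.028 within slide row 1.

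Other directions that turned all lay at results that had not passed in the main setting, apart from region 36010557 in profile (0.062 with medians). With normexp they were the differences of loci 1, 3, 5 and 8 (0.032, 0.014, 0.026 and 0.19), the profiles of loci 2, 3, 5, 6 and 8 (-0.12, -0.085, -0.048, 0.0078 and -0.029) and that of region 38715288 (-0.054). Among these the profile of locus 3 passed, below the median (limma, adjusted p = 0.0354). The difference of locus 1 was 0.11 within slide row 1. That of locus 8 was 0.021 with the authors' values, 0.067 over probes bright in input or bright in both, 0.33 within slide row 2, and 0.047, 0.0035, 0.061 and 0.032 without heifers 1, 3, 5 and 6 (-0.21 to 0.061 without any 1 heifer). The profile of locus 2 was -0.037 with the authors' values and -0.11 over probes bright in input or bright in both. That of locus 3 was -0.018 with scaling, -0.010 over probes bright in input, -0.041 within slide row 1 and -0.0052 without heifer 4 (-0.0052 to 0.054 without any 1 heifer). That of locus 6 was 0.030 with loess, 0.10 over probes bright in both channels, 0.085 within slide row 2 and 0.0082 without heifer 5 (-0.10 to 0.0082 without any 1 heifer). The cause of these changes was not tested. The number of arrays and enriched signal near background limit the precision.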
